A study of Mus musculus with 15 samples.

Results

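ALK, its relative LTK and their ligand ALKAL2 were followed at the RNA level in large sensory neurons of mouse dorsal root ganglia. Each of the 3 genes Alkal2, Alk and Ltk had 1 probe set among 19938 genes tested, found by gene symbol, and all 3 are described on every array. They were selected on earlier results of these data, in which Alkal2 had one of the smallest p-values between inflamed and control skin neurons. That comparison is therefore given as a description without a test, for Alk and Ltk as well.

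ALK is a receptor tyrosine kinase of the nervous system in the insulin receptor superfamily, and LTK is its closest relative. Both are activated by the small secreted proteins ALKAL1 and ALKAL2, and the active receptor recruits adaptors of the Shc, Frs and Irs families that feed the ERK and PI3 kinase pathways. In mice, ALKAL2 made by nociceptors and ALK on sensory neurons have been linked to the pain that follows inflammation.

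RNA was measured on 15 whole-transcript microarrays, in 5 groups of 3 biological replicates, all from C57BL/6 mice in which the calcitonin gene-related peptide (CGRP) promoter drives green fluorescent protein (GFP), so that GFP marks CGRP-positive cells. CFA paw neurons were large (over 26.9 µm), CGRP-positive and skin-projecting, from mice with complete Freund's adjuvant (CFA) injected into the paw, and saline paw neurons were the same population after a saline injection. CFA muscle, acid muscle and saline muscle neurons were large, CGRP-negative and muscle-projecting, after CFA, acid or saline in the muscle. All mice had a retrograde tracer placed in the gastrocnemius muscle or on the saphenous nerve 5 days before they were killed, and ganglia of lumbar levels 2 to 5 on the treated side were sorted. CGRP status, target tissue and injection site change together between paw and muscle groups, so they cannot be told apart. Age, sex, the number of mice in a sample and the time from injection to tissue were not given in the sources used here.

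Saline paw replicate 1 stood apart from its group, with correlations within saline paw from 0.939 to 0.991 across genes, against 0.987 to 0.991 within CFA paw. The spread of log2 expression over genes (SD) ran from 1.66 to 1.80 on the other 5 paw arrays, was 1.42 on saline paw replicate 1, and ran from 1.28 to 1.55 on the 9 muscle arrays. Differences that use saline paw are therefore also given without that array for Alkal2, Alk, Ltk and the main pathway genes. Background was taken from 1194 odorant and pheromone receptor genes: the dim limit, under which 95% of them lay, was 2.44 over all arrays. The number of arrays limits the precision, with a median standard error (SE) of 0.186 for a log2 difference.

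Alkal2 was highest in CFA paw neurons and higher in both skin groups than in any muscle group. Its log2 expression was 4.20, 4.63 and 4.56 on the 3 CFA paw arrays, and 3.27, 3.92 and 3.88 on the saline paw arrays. In muscle neurons it was 2.66, 2.97 and 3.13 after CFA, 2.89, 3.15 and 2.83 after acid, and 2.70, 3.14 and 2.64 after saline. All 6 paw arrays lay above all 9 muscle arrays, and every CFA paw array lay above every saline paw array. The muscle levels were close to background: against a dim limit set on each array, Alkal2 passed on 14 of 15 arrays and missed it on saline muscle replicate 3. The probe set belongs to a protein-coding gene at chr12:30884324-30893856 (GRCm38.p6).

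**Figure D1:**
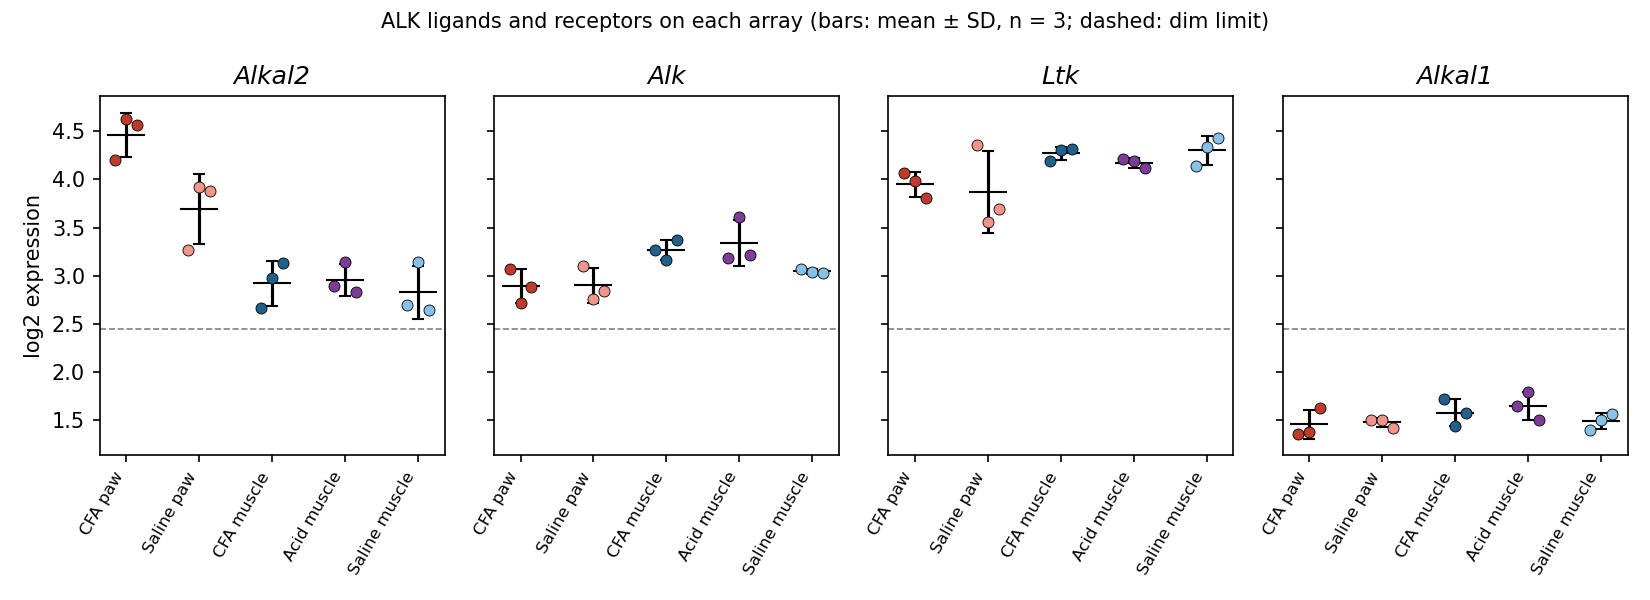
Log2 expression of Alkal2, Alk, Ltk and the second ligand Alkal1 (vertical axis) in the 5 groups, with 1 point per array, bars for the mean ± SD (n = 3) and a dashed line at the dim limit of 2.44. Alkal2 separates the paw from the muscle groups, Alk and Ltk vary within a narrow band, and Alkal1 lies under the line on all 15 arrays. Levels are to be read within a gene, since probe sets of different genes are not on a common scale.

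Group means of Alkal2 were 4.46 ± 0.23 in CFA paw and 3.69 ± 0.36 in saline paw (SD, n = 3 each). The difference of 0.77 on the log2 scale (1.71-fold) is the value by which the gene was chosen. Without saline paw replicate 1, the lowest of the 6 paw arrays, it was 0.56. No gene passed between CFA paw and saline paw at a Benjamini-Hochberg adjusted p under 0.05 in limma (0% of 19938 genes). An unadjusted p under 0.05 was found for 241 genes. That is less than a share of 0.05 of all genes, the share expected where no gene differs. On every CFA paw array 1.73% of genes were higher than on every saline paw array.

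The muscle treatments gave no comparable difference for Alkal2. Its mean was 2.92 ± 0.24 in CFA muscle and 2.95 ± 0.17 in acid muscle, against 2.83 ± 0.27 in saline muscle (SD, n = 3 each). CFA muscle exceeded saline muscle by 0.091 (95% confidence interval −0.35 to 0.53) and acid muscle exceeded it by 0.13 (−0.31 to 0.56), with a limma adjusted p of 1 for both. The 2 comparisons share the saline muscle arrays. CFA muscle and acid muscle differed by −0.035 (−0.47 to 0.40). The 3 muscle groups overlapped, so their order for Alkal2 is not resolved by this spread. In each of these 3 muscle comparisons limma called 0% of genes. An unadjusted p under 0.05 was found for 518 (CFA against saline), 568 (acid against saline) and 626 (CFA against acid) genes. Each count is less than a share of 0.05 of all genes, the share expected where no gene differs. As a description, the CFA difference was 0.68 larger in the paw than in the muscle (SE 0.289; 0.47 without saline paw replicate 1).

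Between the control groups, Alkal2 was 1.82-fold higher in saline paw than in saline muscle (log2 difference 0.86, SE 0.204, limma adjusted p 0.0456). The groups did not overlap, as for 8.11% of genes that were higher on every saline paw array, and 2.04% of genes passed in either direction. The adjusted p was 0.00196 without saline paw replicate 1 (difference 1.07), and the call was lost without any 1 of the other 5 arrays (adjusted p up to 0.246, differences from 0.75). When the 6 arrays of these groups were fitted alone it was 0.30, and no gene passed. After CFA the gap was wider: Alkal2 was 2.92-fold higher in CFA paw than in CFA muscle (1.54, SE 0.204, adjusted p 0.000747), where 6.41% of genes passed and 18.9% were higher on every CFA paw array. This call held without each array in turn, with differences from 1.42 to 1.68. Both comparisons use paw arrays on which the gene was chosen, so the choice itself bears on them: it favours high CFA paw and low saline paw values. The wider gap after CFA contains the CFA paw minus saline paw difference by which Alkal2 was chosen, so the widening is a description only.

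**Figure D2:**
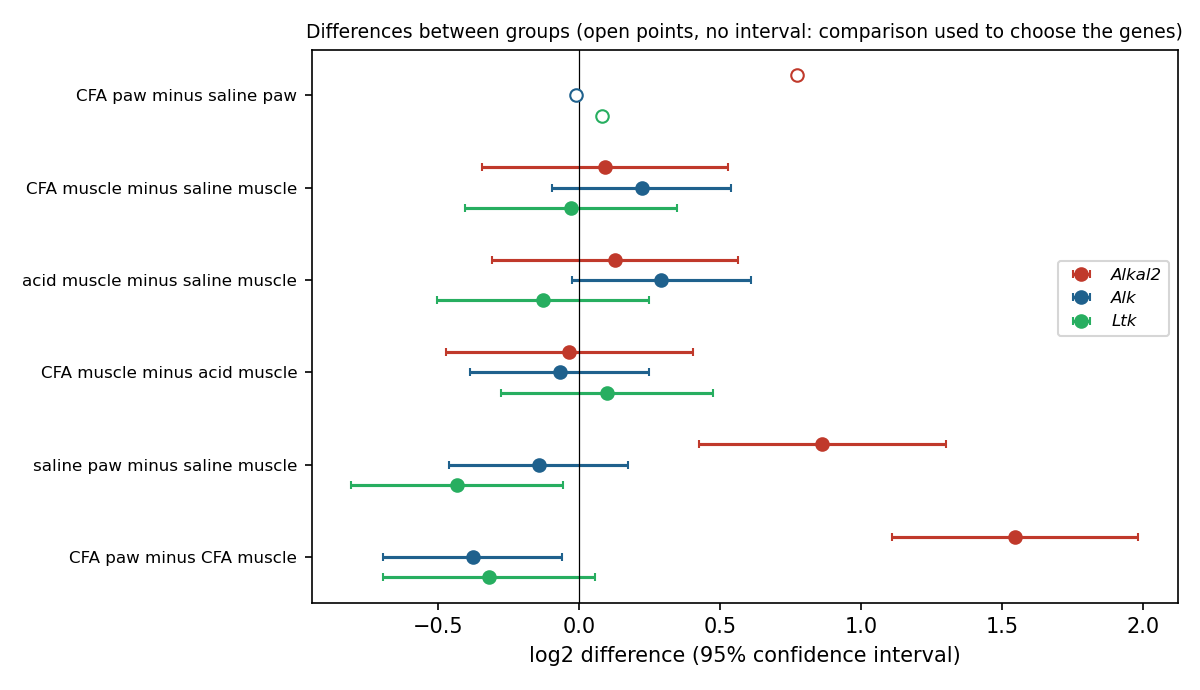
Log2 differences between groups (horizontal axis) for Alkal2, Alk and Ltk, with the 95% confidence interval from limma. Open points without an interval mark CFA paw minus saline paw, the comparison the genes were chosen from; Alkal2 stands apart from 0 in both paw against muscle comparisons, at 0.86 and 1.54.

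Alk, the receptor, ran the other way in its group means, at levels close to background. It was lowest in the skin neurons and highest in the treated muscle neurons. Its log2 expression was 3.07, 2.71 and 2.88 in CFA paw, and 3.10, 2.76 and 2.84 in saline paw. CFA muscle arrays gave 3.27, 3.16 and 3.37, acid muscle arrays 3.18, 3.61 and 3.22, and saline muscle arrays 3.07, 3.04 and 3.02. Every CFA muscle array and every acid muscle array exceeded every saline muscle array, whose 3 values spanned less than those of any other group (SD 0.024). Alk, at chr17:71868988-72604702, was above the dim limit of its array on all 15 arrays.

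Compared with saline muscle, Alk differed by 0.22 in CFA muscle (95% confidence interval −0.096 to 0.54) and by 0.29 in acid muscle (−0.026 to 0.61). Unadjusted p was 0.157 for CFA and 0.0694 for acid, and the limma adjusted p was 1 for both, so neither passed. Such a lack of overlap in this direction was found for 3.63% of genes after CFA and 3.98% after acid. The acid difference was 0.15 without acid muscle replicate 2, the highest of the 15 arrays. CFA muscle and acid muscle differed by −0.069 (adjusted p 1; 0.068 without acid muscle replicate 2).

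In skin neurons Alk averaged 2.89 ± 0.18 in CFA paw and 2.90 ± 0.18 in saline paw (SD, n = 3 each), a difference of −0.013 that was 0.089 without saline paw replicate 1. The arrays of the 2 groups overlapped. Saline paw differed from saline muscle by −0.14 (SE 0.148, limma adjusted p 0.656), by −0.25 without saline paw replicate 1, and by 0.054 with the SD of each array in the model. After CFA every paw array lay under every muscle array, as for 17.1% of genes, with a difference of −0.38 (SE 0.148, adjusted p 0.158) that did not pass, but did with array weights (−0.39, adjusted p 0.0282).

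The promoter windows of Alkal2, the member that differed between paw and muscle, and of its receptor gene Alk are shown for their sequence context. Each is the 250 bases before the start used for that gene in a RefSeq promoter set on GRCm38.p6, on the gene's own strand. The Alkal2 window ends at the base before the annotated gene, whereas the Alk window lies inside the annotated span of Alk given above, so the windows are not alike in position. Capitals mark TGACG, the core of the cyclic AMP response element, and GGGCGG, the GC box, on either strand (on the opposite strand it reads CCGCCC). The windows are chr12:30884074-30884323 (plus strand) for Alkal2 and chr17:72604308-72604557 (minus strand) for Alk.
Alkal2: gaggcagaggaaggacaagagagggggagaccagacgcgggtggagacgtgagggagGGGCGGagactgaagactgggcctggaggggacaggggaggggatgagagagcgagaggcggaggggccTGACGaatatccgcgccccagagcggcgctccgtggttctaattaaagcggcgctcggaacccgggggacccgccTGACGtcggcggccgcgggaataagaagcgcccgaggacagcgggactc
Alk: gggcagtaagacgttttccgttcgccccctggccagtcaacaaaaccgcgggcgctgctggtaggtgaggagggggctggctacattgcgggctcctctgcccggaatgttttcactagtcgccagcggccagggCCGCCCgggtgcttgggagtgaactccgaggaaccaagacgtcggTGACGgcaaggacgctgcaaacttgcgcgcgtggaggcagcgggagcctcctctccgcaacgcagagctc

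The Alkal2 window held TGACG at 2 places, 124 to 120 and 49 to 45 bases before the start, and the Alk window at 1, 70 to 66 bases before it. Over 32851 such windows of RefSeq genes, 17.8% held TGACG and 32.7% held GGGCGG on either strand. The full element TGACGTCA (in 1.55% of windows, and containing TGACG), the AP-1 motif TGANTCA (6.75%) and the TATA box TATAAA (12.4%) were searched on both strands and were in neither window. A match in letters is a description of the sequence, and binding was not measured.

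Ltk, the second receptor (chr2:119751326-119760431), was lower in skin than in muscle neurons in these arrays, without passing the test. It measured 4.06, 3.98 and 3.81 in CFA paw, and 4.35, 3.56 and 3.70 in saline paw. CFA muscle arrays gave 4.19, 4.30 and 4.32, acid muscle arrays 4.21, 4.19 and 4.12, and saline muscle arrays 4.14, 4.33 and 4.44. Saline paw replicate 1 lay among the muscle arrays, while the other 5 paw arrays lay under all 9 of them.

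Saline paw differed from saline muscle by −0.43 for Ltk (SE 0.176, limma adjusted p 0.223). Without saline paw replicate 1 the difference was −0.68 and the adjusted p 0.00390, so that 1 array decides whether Ltk passes. After CFA the paw arrays lay under the muscle arrays, as for 17.1% of genes. The difference was −0.32 (SE 0.176, adjusted p 0.320), and 0.031 with the SD of each array in the model. CFA paw differed from saline paw by 0.082, and by 0.32 without saline paw replicate 1. In muscle neurons Ltk differed by −0.030 between CFA and saline (95% confidence interval −0.41 to 0.35), by −0.13 between acid and saline (−0.50 to 0.25) and by 0.099 between CFA and acid (−0.28 to 0.48), with an adjusted p of 1 for each.

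Alkal1, which encodes the second ligand (chr1:6359331-6394731) and was not chosen with the others, averaged from 1.46 (CFA paw) to 1.64 (acid muscle) and lay under the dim limit on all 15 arrays. No change in its level could be read from these arrays. The range of group means was 1.64 for Alkal2, exceeded by 1.57% of genes, 0.45 for Alk (exceeded by 37.8%) and 0.43 for Ltk (39.9%).

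The genes whose values over the 15 arrays were most like those of Alkal2 were taken by the root mean square (RMS) difference after centring each gene on its mean, among 12675 genes above the dim limit. They were the recycling endosome GTPase Rab11b (0.24), the semaphorin Sema4d (0.25), the G protein subunit Gnb1 (0.25), the acyl-CoA thioesterase Acot7 (0.26), the scaffold gene Frmd4a (0.26), the phosphodiesterase Pde1c (0.27), the ETS factor Etv6 (0.27) and Ergic1 (0.27), a gene of the early secretory pathway. A flat profile would lie at 0.66 from Alkal2. All 8 were higher in paw than in muscle groups and low on saline paw replicate 1 for their group. This follows from choosing them by likeness to Alkal2 on the same arrays. Their CFA paw minus saline paw differences ran from 0.20 (Frmd4a) to 0.52 (Ergic1), against 0.77 for Alkal2. Without saline paw replicate 1, 6 of the 8 were still among the 8 nearest.

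**Figure D3:**
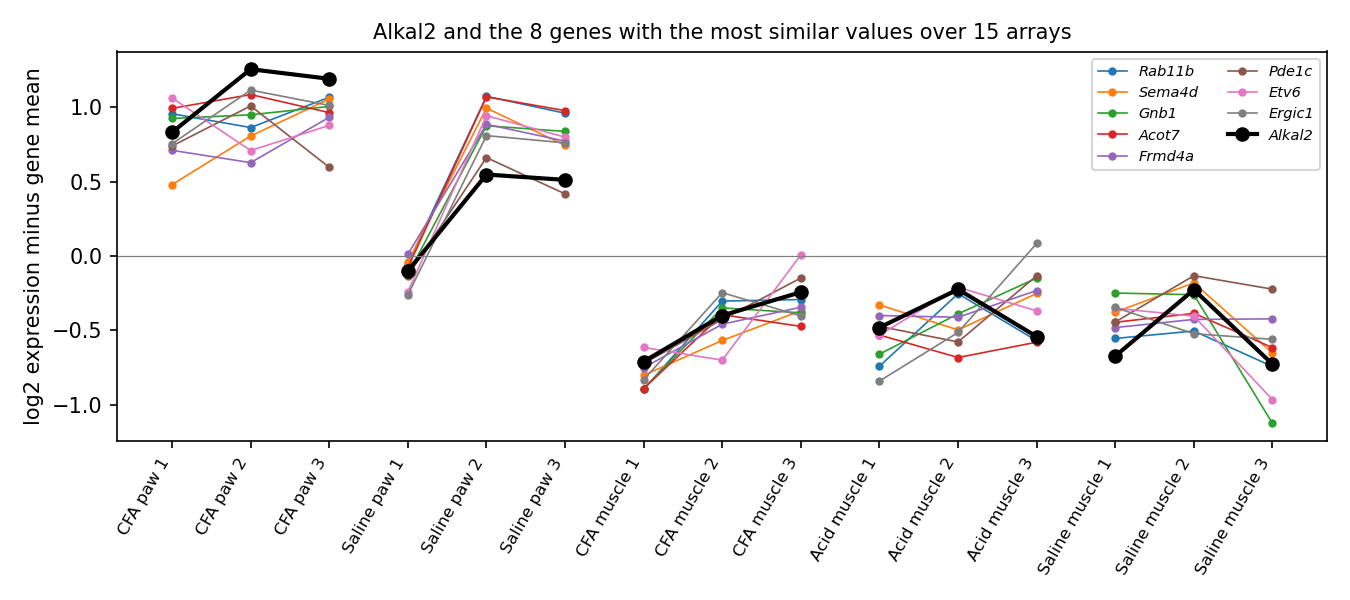
Log2 expression minus the gene's mean (vertical axis) on the 15 arrays (horizontal axis, lines join the arrays of a group) for Alkal2 (black) and the 8 genes nearest to it by RMS difference, 0.24 to 0.27. On the other 5 paw arrays all 9 profiles lie above every muscle array, and saline paw replicate 1 is lower, under 2 muscle arrays for Ergic1 and for Etv6; Alkal2 is lower than all 8 genes on saline paw replicate 2 and lower than 7 of them on replicate 3.

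For Alk the nearest profiles were those of Zfp879 (0.10), Mrgprg (0.10), Gpr27 (0.11), Hdgfl2 (0.11), Miip (0.11), Galp (0.12), Lcn12 (0.12) and Dnaic1 (0.12), against 0.23 for a flat profile. Only 4 of these 8 were among the nearest without saline paw replicate 1, so the ranking is loose.

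Genes that act with or after ALK were taken from 4 lists, whose members had a single-gene probe set in 7 of 7 (pleiotrophin and midkine system), 30 of 37 (adaptors and kinases), 17 of 17 (targets and inhibitors of the ERK pathway) and 27 of 29 (other receptor tyrosine kinases) cases. Between CFA paw and CFA muscle 6.41% of all genes were called, 1146 higher and 133 lower. The median log2 difference of the ERK pathway list was 0.45, against −0.041 over all genes, those under the dim limit included. Of its 17 genes 6 were called higher and 0 lower. They were Etv5, an ETS factor induced by ERK signalling (1.80, SE 0.241, adjusted p 0.000798), the secreted neuropeptide precursor Vgf (1.40, SE 0.152, adjusted p 0.000210), the immediate early gene Egr1 (1.20), Phlda1 (1.11) and the feedback inhibitors Spred2 (0.90) and Spry4 (0.78). Dusp6, a phosphatase that acts on ERK, differed by −0.079 (SE 0.201). Of the 30 adaptors and kinases 4 were higher and 0 lower: Cblb (1.64) and Cbl (1.22), which mark receptors for degradation, the insulin receptor substrate Irs2 (1.45) and the PI3 kinase subunit Pik3r1 (1.36). Of the 27 other receptor tyrosine kinases Kit (2.68), the neurotrophin 3 receptor Ntrk3 (adjusted p 0.0365), Fgfr1 (1.06) and Epha5 (0.65) were higher and 0 lower. The adaptor list had a median difference of 0.45 too, with positive differences in 27 of 30 genes. The receptor kinase list had a median of −0.11, with positive differences in 9 of 27. With 1 array left out the ERK pathway count ran from 2 (without CFA paw replicate 2) to 4, the adaptor count from 3 to 4 and the receptor kinase count from 1 (without CFA paw replicate 2) to 3. Spred2 lost its call in 6 of 6 such fits, and Spry4, Phlda1, Ntrk3 and Fgfr1 in 5 of 6. Egr1, Cbl and Epha5 lost it in 3 of 6. Under the 10 alternatives the counts ran from 2 to 8 (ERK pathway), 0 to 12 (adaptors) and 2 to 8 (receptor kinases). Each of the called genes except Etv5, Vgf and Kit lost its call under at least 1 of these alternatives. The calls of Etv5, Vgf and Kit held under every alternative and without each array.

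Between the control groups 2.04% of all genes were called, 373 higher in saline paw and 34 lower. In each of these 3 lists 1 gene was higher in saline paw and 0 lower, namely Vgf (0.85, SE 0.152, limma adjusted p 0.0114), Irs2 (1.17, SE 0.250, adjusted p 0.0296) and Kit (2.40, SE 0.329, adjusted p 0.00336). When the 6 arrays of these groups were fitted alone, none of the 3 passed (adjusted p 0.219 for Vgf, 0.223 for Irs2 and 0.186 for Kit). Without saline paw replicate 1 the counts were 7 (ERK pathway), 11 (adaptors) and 6 (receptor kinases). Without saline paw replicate 2 or 3 they were 0, 0 and 1, and the call of Irs2 was lost without any 1 of the arrays other than saline paw replicate 1. Shares of 1 in 30 and 1 in 27 are near the share over all genes, and these counts rest on single arrays. Etv5 differed by 0.98 (SE 0.241, limma adjusted p 0.0523), and by 1.31 without saline paw replicate 1. Ret, the GDNF family receptor, differed by 0.11 (SE 0.298), and by 0.46 without that array.

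After CFA in the paw the ERK pathway genes differed less. Vgf measured 6.09, 6.03 and 6.04 in CFA paw, and 5.44, 5.63 and 5.52 in saline paw. It did not overlap, as for the 1.73% of all genes that were higher on every CFA paw array. Its log2 difference was 0.52 (0.48 without saline paw replicate 1). Etv5 measured 5.73, 5.83 and 6.11 in CFA paw, and 4.67, 5.71 and 5.65 in saline paw, where replicate 1 is low and the other 2 arrays lie just under CFA paw, with a log2 difference of 0.55 that was 0.21 without that array. Spry4 differed by 0.51, and by 0.36 without it. The list's median difference was 0.079, against −0.011 over all genes, with 0 of 17 genes called. In CFA muscle against saline muscle its median was −0.20, with positive differences in 3 of 17 genes and 0 called. In acid muscle against saline muscle it was −0.0013, with 0 called.

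**Figure D4:**
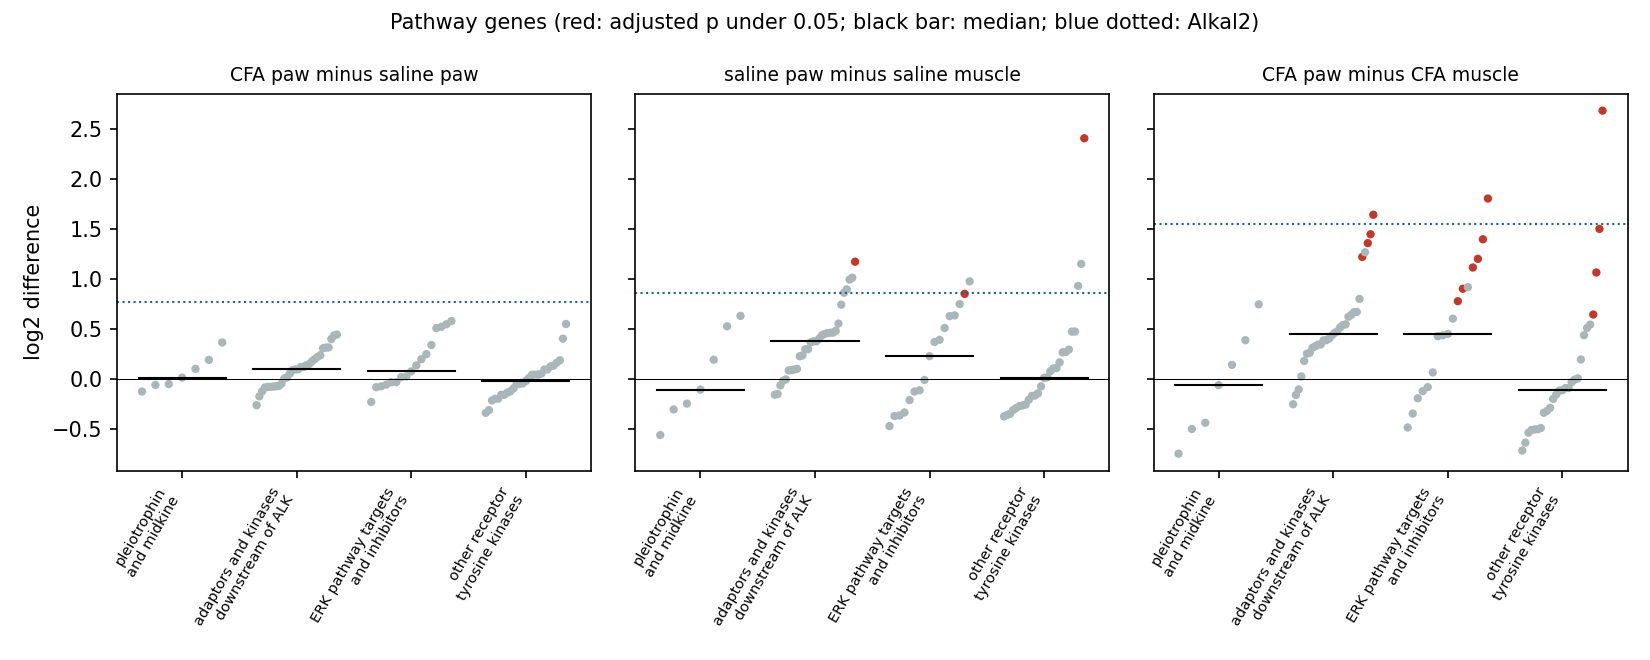
Log2 differences (vertical axis) of the genes of 4 pathway lists in 3 comparisons, with 1 point per gene, red where the adjusted p was under 0.05, a black bar at the list's median and a blue dotted line at the value of Alkal2. Calls appear in the paw against muscle comparisons, all of them upward, and none between CFA paw and saline paw. Over all genes 1146 of 1279 calls were upward after CFA, and 373 of 407 between the control groups.

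Pleiotrophin and midkine, growth factors proposed as ALK ligands, and their receptor phosphatase gave no call in any comparison. Over all genes 0% to 6.41% passed in a comparison, so the list's 0 of 7 genes is near that share. Between CFA paw and CFA muscle 1 gene passed without CFA muscle replicate 1, and 1 or 2 genes passed under 5 of the 10 alternatives; array weights gave 3 and cyclic loess 1 between saline paw and saline muscle. Ptn averaged 6.44 ± 0.13 in CFA paw and 6.08 ± 0.40 in saline paw (SD, n = 3 each), a difference of 0.37 that was 0.14 without saline paw replicate 1. Mdk was at 4.08 ± 0.19 in CFA paw and 4.83 ± 0.36 in CFA muscle, a difference of −0.74 (SE 0.213, limma adjusted p 0.0532). Ptprz1, also a gene of satellite glia, differed by 0.90 between CFA muscle and saline muscle (SE 0.426, adjusted p 1), and its saline muscle arrays ranged from 3.20 to 4.99.

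Several marker lists moved with the paw against muscle differences of Alkal2 and the ERK pathway genes. The mean log2 level of 5 measured markers of peptidergic nociceptors (Calcb, Tac1, Trpv1, Gfra3 and Kit, which is also among the receptor kinases above) ran from 7.28 to 7.51 in CFA paw, 6.04 to 7.53 in saline paw and 4.42 to 5.28 in the muscle groups. The 7 pan-neuronal markers ran from 8.45 to 8.58 in CFA paw, 7.68 to 8.70 in saline paw and 6.93 to 7.86 in the muscle groups. The 6 measured markers of large myelinated neurons ran from 7.54 to 8.10 in CFA paw, 7.38 to 8.14 in saline paw and 6.51 to 7.70 in the muscle groups. Within this list Pvalb did not follow the mean. It averaged 4.41 in CFA paw and 5.01 in saline paw, against 5.07 (CFA), 5.18 (acid) and 4.79 (saline) in muscle. Saline paw replicate 1, with the smallest SD over genes of the paw arrays (1.42), was their lowest for the peptidergic, pan-neuronal and myelinated lists. It was the lowest for Alkal2 too. The same held for non-peptidergic nociceptors (5.65), satellite glia (5.68) and Schwann cells (5.74), so a low value there was not particular to neuronal markers. For the dimmer lists it was the highest paw array: endothelial cells (3.12), fibroblasts, macrophages, and lymphocytes and neutrophils. The part of the marker lists in the result was not tested. In sorted pools fewer cells of a type and less RNA per cell cannot be told apart.

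The 5 measured markers of non-peptidergic nociceptors differed among themselves in direction between paw and muscle groups. Their mean ran from 6.22 to 6.30 in CFA paw, 5.65 to 6.48 in saline paw and 6.29 to 7.12 in the muscle groups. Mrgprd, the Mas-related receptor that marks non-peptidergic nociceptors of the skin, averaged 5.29 in CFA paw and 5.32 in saline paw, against 7.40 (CFA muscle), 7.09 (acid muscle) and 7.22 (saline muscle). P2rx3 averaged 7.39 in CFA paw and 7.01 in saline paw, against 7.31 (CFA), 6.97 (acid) and 7.11 (saline) in muscle. Ret was at 8.75 in CFA paw and 8.35 in saline paw, above its muscle means of 8.24 (CFA), 7.96 (acid) and 8.24 (saline). Endothelial markers were higher in muscle groups (2.91 to 3.94 over 6 genes) than in CFA paw (2.64 to 2.66), with saline paw from 2.46 to 3.12. Of 6 macrophage markers 4 lay under the dim limit, and Csf1r averaged 2.73 in CFA paw and 2.78 in saline paw. Markers of the satellite glia that wrap these neurons also differed in direction. Over 6 genes their mean ran from 6.30 to 6.47 in CFA paw and 5.68 to 6.73 in saline paw. Fabp7 and Apoe, the brightest of them, were above 9 in every group, with higher means in the paw than in the muscle groups. Cdh19 averaged 2.63 in CFA paw and 2.18 in saline paw, against 3.29 (CFA), 3.06 (acid) and 3.08 (saline) in muscle. Calca, the gene behind the sort, was not analysed here.

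**Figure D5:**
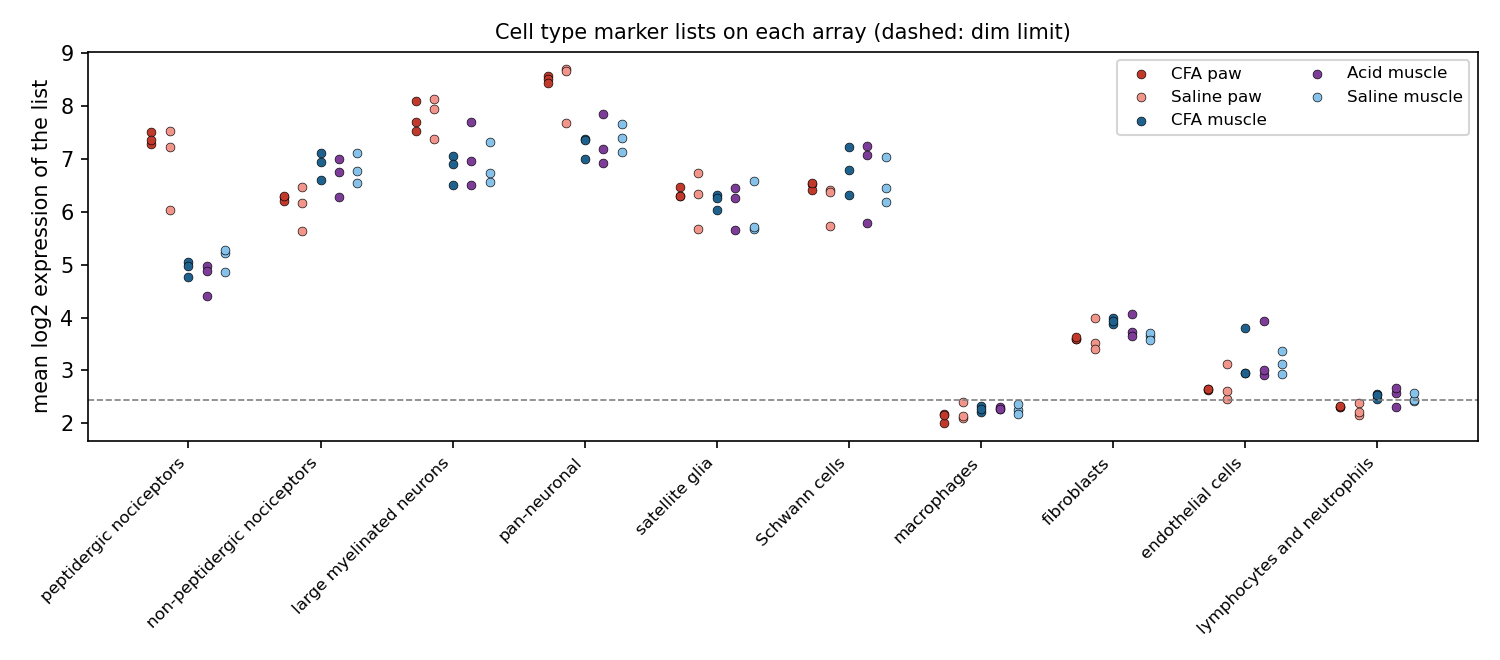
Mean log2 expression (vertical axis) of 10 marker lists on each array, coloured by group, with a dashed line at the dim limit of 2.44. Group means of the peptidergic, pan-neuronal and myelinated lists are higher in the paw than in the muscle groups, though not for every member. The mean of the macrophage list lies under the line on all arrays.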

How the data were processed

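The authors deposited log2 expression values per probe set for 15 arrays. RMA and Partek are given, without versions, in the submitters' processing notes, and the log base was taken from the range of the values, as it is not given in the sources used here. Values were used as deposited, with groups from the sample titles. Of 35556 probe sets, 21789 had 1 gene symbol in the platform annotation and 1621 several, which were left out. For 999 genes with several probe sets the one with the highest mean was used. No 2 arrays were identical.

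A model with 5 group means was fitted to 19938 genes with limma 3.58.1 in R 4.3.3 (10 residual and 4.32 prior degrees of freedom). Tests were two-sided, with Benjamini-Hochberg adjustment over all genes and a threshold of 0.05, and were tested on simulated data. Confidence intervals are 95% intervals from this fit, per comparison. All list members that passed, the 8 genes nearest to Alkal2 and to Alk, up to 3 genes with the smallest p of a list, and a few fixed genes were named. The 3 genes and the lists were chosen with earlier results of these data known. Promoter windows came from RefSeq (GRCm38.p6). The alternatives were other scalings, a dim filter, other fits, array SD as a covariate, the replicate number as a block, and each array left out in turn.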

Additional observations from a re-analysis of the deposited data

How the results depend on the processing

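The call for Alkal2 between saline paw and saline muscle was lost with median centring (0.95, adjusted p 0.0651), quantile normalization (0.85, adjusted p 0.0541), the 6 arrays fitted alone (0.86, adjusted p 0.30) and the array SD in the model (0.66, adjusted p 0.174). With 1 array left out it ran from 0.75 to 1.07. Between CFA paw and CFA muscle its call held under all 10 alternatives. With array weights the direction turned for Alk in CFA minus acid muscle (0.018), Alkal2 in acid minus saline muscle (−0.0094) and in CFA minus acid muscle (0.065; 0.0089 with cyclic loess), and Ltk in CFA minus saline muscle (0.0016). Array weights also made calls of Alk in CFA paw minus CFA muscle (−0.39) and Ltk in saline paw minus saline muscle (−0.59). With the array SD in the model Alk in saline paw minus saline muscle was 0.054 and Ltk in CFA paw minus CFA muscle 0.031, both turned. The cause was not tested for any of these.

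With 1 array left out, Alk in CFA minus acid muscle ran from −0.15 to 0.068, and Alkal2 from −0.14 to 0.094 there and from −0.012 to 0.25 in CFA minus saline muscle. Ltk ran from −0.11 to 0.037 in CFA minus saline muscle, from −0.68 to −0.28 in saline paw minus saline muscle, and from −0.044 to 0.35 for the CFA difference of paw minus muscle.

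Genes called between CFA paw and CFA muscle (1279, of which 1146 higher) numbered 763 with quantile normalization (608 higher), 3209 with the 6 arrays fitted alone (2529 higher), 4054 with array weights (2812 higher), 444 with the array SD (232 higher), and 527 to 832 with 1 array left out; cyclic loess gave 879 higher and 228 lower. Between saline paw and saline muscle (407, of which 373 higher) they numbered 213 with median centring, 0 with the 6 arrays fitted alone, 7379 with array weights (4272 higher) and 51 to 3824 with 1 array left out, the most without saline paw replicate 1. There cyclic loess gave 317 higher and 142 lower, quantile normalization 254 and 93, and the array SD 164 and 206. Array weights gave 125 calls between CFA paw and saline paw, against 0. With 1 array left out the count ran from 0 to 8 for CFA minus saline muscle and 0 to 6 for CFA minus acid muscle, and 0 to 1 for the CFA difference of paw minus muscle, each highest without CFA muscle replicate 1. Median centring shifted the median of all genes by 0.11 in CFA paw minus CFA muscle.

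Replicate numbers did not pair the samples: deviations of same-numbered arrays correlated from −0.53 to 0.34 over 30 pairs, and the own number was highest in 10. With the replicate number as a block, 316 genes were called between saline paw and saline muscle and 1144 between CFA paw and CFA muscle, and no call of Alkal2, Alk or Ltk changed. With 3 arrays a group, small differences such as those of Alk in muscle are not resolved. Alkal2 in muscle and Alk in all groups lie close to background.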
